A study of Homo sapiens with 4 samples.

Results

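The genes described here are the small nucleolar RNAs (snoRNAs) and small Cajal body RNAs (scaRNAs) in RNA precipitated with ORC1-FLAG, sorted by box class from their symbols. Members were genes whose GENCODE v44 symbol starts with SNORD (box C/D), SNORA (H/ACA) or SCARNA (Cajal body) followed by a digit, and they were selected on measured values, a sum of at least 20 read counts over the 4 libraries. This gave 57 members among 63677 genes in the count table, with 22 box C/D, 26 H/ACA and 9 Cajal body genes. GENCODE v44 lists 553 such symbols, of which 494 were found in the table by gene identifier. Of these, 305 were listed at 0 in every library and 132 had 1 to 19 counts.

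The study asked which RNAs are bound in cells by ORC1, a subunit of the complex that marks origins of DNA replication. By iCLIP, a crosslinking method not analysed here, it reported many ORC1 crosslinks on highly expressed snoRNAs. It also found the snoRNA C box motif around those sites. All 4 libraries came from HCT116, a line of human colorectal carcinoma cells, 48 h after transfection with the plasmid pcDNA3.1-ORC1-3xFLAG. The 2 IP libraries held RNA precipitated from uncrosslinked nuclear lysate with the FLAG antibody M2, and the 2 Input libraries held RNA of the lysate with no antibody. A precipitation with control IgG and untransfected cells were not analysed here, so RNA held by beads or antibody could not be told apart from RNA held by ORC1-FLAG. The labels number the replicates 1 and 2 and do not say whether these were separate cultures, so the p-values measure the spread between these libraries. In bulk RNA, fewer cells with an RNA and less of it per cell cannot be told apart.

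Box C/D snoRNAs assemble with fibrillarin (FBL), NOP56, NOP58 and SNU13, and guide 2′-O-methylation of ribosomal RNA through base pairing. H/ACA snoRNAs assemble with dyskerin (DKC1), NOP10, NHP2 and GAR1, and guide conversion of uridine to pseudouridine. The scaRNAs carry one or both kinds of box and guide the same modifications on spliceosomal snRNAs in Cajal bodies. Most human snoRNAs are cut out of introns of host genes, while a few, such as U3 (SNORD3 genes), are transcribed from promoters of their own and act in cleavage of pre-ribosomal RNA.

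The sequences below are those of the 2 members with most counts in box C/D and H/ACA and of the called Cajal body gene SCARNA7, since they hold most of the counts of their classes or were called. They were read by gene identifier from the GENCODE v44 transcripts (GRCh38), 5′ to 3′, with T for U. Capitals mark the C box (TGATGA in the first 20 bases) and D box (CTGA in the last 20) of SNORD17, and the D box of SCARNA7. In the H/ACA genes they mark the ANANNA match nearest the middle (H box) and ACA in the last 10 bases. In SNORD3A, whose gene model is longer than the RNA, they mark the first TGATGA, at base 158.
SNORD3A, bases 1 to 300 of 699: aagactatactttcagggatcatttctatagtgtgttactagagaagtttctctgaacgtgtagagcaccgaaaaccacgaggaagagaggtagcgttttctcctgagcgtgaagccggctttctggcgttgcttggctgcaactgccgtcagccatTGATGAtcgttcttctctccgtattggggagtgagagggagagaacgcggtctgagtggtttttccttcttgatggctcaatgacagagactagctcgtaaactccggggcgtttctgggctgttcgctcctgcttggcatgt
SNORD17: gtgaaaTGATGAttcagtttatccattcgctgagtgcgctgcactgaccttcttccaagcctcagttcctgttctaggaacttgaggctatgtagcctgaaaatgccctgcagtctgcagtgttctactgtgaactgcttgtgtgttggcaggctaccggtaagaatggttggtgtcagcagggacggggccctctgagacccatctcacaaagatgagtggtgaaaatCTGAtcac
SNORA73B: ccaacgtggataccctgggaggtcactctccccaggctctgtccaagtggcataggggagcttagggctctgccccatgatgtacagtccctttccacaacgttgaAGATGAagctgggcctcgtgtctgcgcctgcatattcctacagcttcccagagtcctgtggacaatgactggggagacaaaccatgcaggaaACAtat
SNORA79B: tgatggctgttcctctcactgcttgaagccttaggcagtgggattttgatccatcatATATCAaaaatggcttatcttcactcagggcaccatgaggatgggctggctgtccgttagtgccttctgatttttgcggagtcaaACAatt
SCARNA7, bases 31 to 330 of 330: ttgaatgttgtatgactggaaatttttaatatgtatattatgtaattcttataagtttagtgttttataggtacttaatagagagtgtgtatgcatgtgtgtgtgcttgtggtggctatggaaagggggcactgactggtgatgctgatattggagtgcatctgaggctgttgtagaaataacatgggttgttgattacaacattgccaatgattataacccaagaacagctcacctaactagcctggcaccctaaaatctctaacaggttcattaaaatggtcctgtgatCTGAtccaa

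The box letters followed the classes in the symbols. TGATGA in the first 20 bases together with CTGA in the last 20 was found in 15 of 22 box C/D members, against 62.4% of the 314 annotated box C/D genes and 0 of the 26 H/ACA members. The H and ACA letters were found together in 23 of 26 H/ACA members, against 77.6% of the 214 annotated H/ACA genes and 1 of 22 box C/D members. SCARNA7 had a C box at base 7, outside the printed stretch, and a D box at base 322, and 4 of the 9 Cajal body members had both C and D letters. The search was on the sense strand, H box matches were taken between 30% and 70% of the length, and a match describes letters and no bound protein.

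Annotated length differed with how many counts a gene had. The median length was 86 bases for the 305 genes listed at 0, 129 for the 132 with 1 to 19 counts and 134 for the 57 members. Within box C/D the medians were 81, 80 and 89.5 bases, and within H/ACA they were 132, 135 and 135 bases. Overlap with an exon of another gene on the same strand was found for 136 of the 305 genes listed at 0 (44.6%), 23 of the 132 with 1 to 19 counts (17.4%) and 19 of the 57 members (33.3%). The part of length and of exon overlap in detection was not tested. The families of imprinted loci were nearly all at 0, with 44 of 46 SNORD115, 27 of 28 SNORD116, 29 of 30 SNORD114 and 9 of 9 SNORD113 genes listed at 0. SNORD13 and SNORD118 (U8), both known for pre-ribosomal RNA processing, were also listed at 0 in all 4 libraries. At the threshold, SNORA5A, SNORD14A and SNORD63 had 20 counts each and were the members just inside, while SNORD3B-1 with 19 and SNORA66 with 18 lay just outside.

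Members made up a small share of the libraries, and that share differed between replicates. Library sizes were 27483148 and 20280445 counts for IP (replicate 1, then 2) and 14677002 and 9213877 for Input. The 57 members together held 858 and 1981 counts in IP and 2587 and 5144 in Input, that is 3.12, 9.77, 17.6 and 55.8 per 100000 counts. They were lower in IP than in Input in each replicate, and higher in replicate 2 in both groups. On the log2 scale of counts scaled to library size (CPM + 0.5), the median member was 1.19 higher in Input replicate 2 than in Input replicate 1 (54 of 57 members) and 0.68 higher in IP replicate 2 than in IP replicate 1 (56 of 57 members). The median over all 16349 genes with at least 20 counts moved by 0.052 and -0.0068. The log2 ratios below therefore compare Input and IP of the same replicate. The edgeR test, except where the replicate number was a block, does not pair them, so this shift enters its spread. ORC1 itself, which the plasmid encodes, had 23064 and 326098 counts in IP and 5820 and 59163 in Input, with a log2 ratio of IP to Input of 1.73 and 1.87.

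All 3 classes lay below the other genes in the precipitate. The median log2 ratio of IP to Input of the 22 box C/D members was -0.34 in replicate 1 and -0.88 in replicate 2. That of the 26 H/ACA members was -0.54 and -1.08, and that of the 9 Cajal body members was -0.59 and -0.86. The median over all genes with at least 20 counts was 0.026 and -0.063. Box C/D lay above H/ACA by 0.21 in replicate 1 and 0.20 in replicate 2, with mean ratios that ranged from -2.67 to 0.46 in box C/D and from -3.58 to 0.33 in H/ACA. This difference of medians was 0.12 for the mean of both replicates and 0.37 with a pseudocount of 0.1 CPM. It was 0.51 from edgeR fold changes with every gene of at least 20 counts tested. Among members with at least 100 counts it was 0.79 (-1.28 against -2.06). Without Input replicate 2 the class medians over the remaining libraries were -0.03 for box C/D, -0.25 for H/ACA and -0.09 for Cajal body members, and without Input replicate 1 they were -1.30, -1.49 and -1.34. These ratios used a pseudocount of 0.5 CPM, which pulls them towards 0, since the median member had 1.34 CPM in Input.

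**Figure D1:**
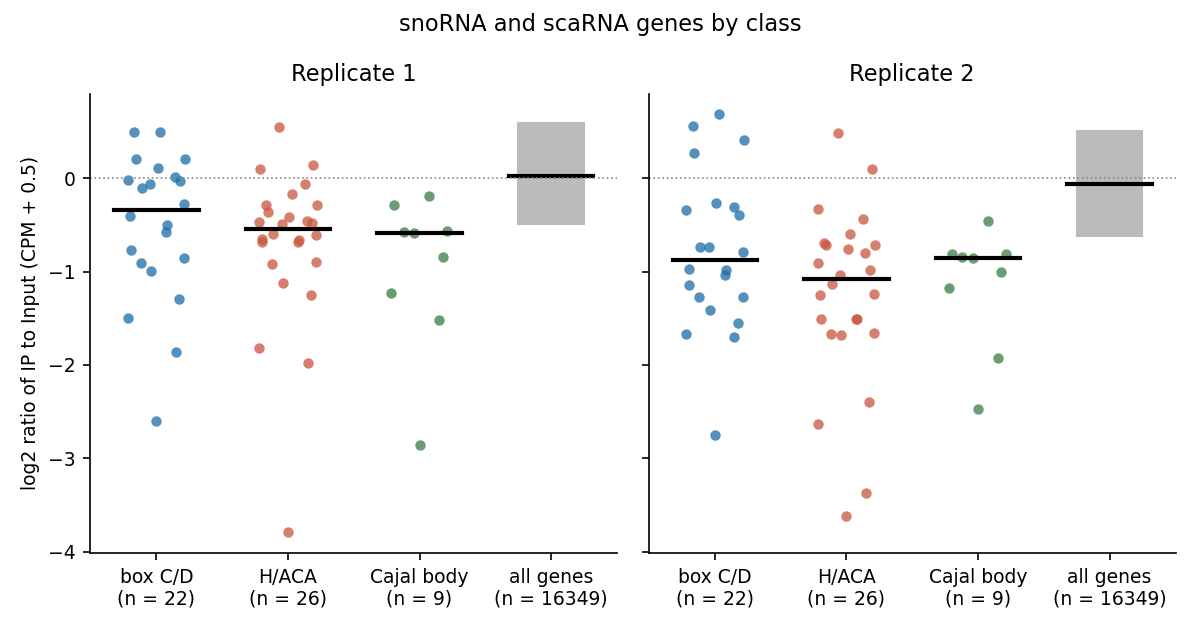
Log2 ratio of IP to Input (vertical axis, TMM-scaled CPM with 0.5 added) of each member by class, for replicate 1 (left) and replicate 2 (right). Points are genes, black bars are medians, and the grey box spans the quartiles of all 16349 genes with at least 20 counts. The class medians lie between -0.34 and -0.59 in replicate 1 and between -0.86 and -1.08 in replicate 2.

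A ratio below 0 in both replicates was found for 48 of the 57 members (84.2%), against 42.2% of all genes with at least 20 counts. By class this was 16 of 22 box C/D, 23 of 26 H/ACA and 9 of 9 Cajal body members. A ratio below -1 in both replicates was found for 11 members (19.3%), against 6.24% of all genes. Genes with few counts lay somewhat lower in general, and the share below 0 in both replicates was 49.2% of the 2556 genes with 20 to 49 counts, 46.5% of the 1336 with 50 to 99 and 40.3% of the 12457 with 100 or more. Both IP libraries lay below both Input libraries for 23 members (40.4%), against 31.4% of all genes. Both IP libraries lay above both Input libraries for 1 member, SNORA5C, against 31.0% of all genes.

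The edgeR quasi-likelihood test with group as its only term called 3 members depleted, with log2 fold changes below -1 and adjusted p-values under 0.05. They were SNORA73B, SNORA74A and SCARNA7. These were 3 of the 35 members that passed the filter on low counts (8.57%), a share close to the 8.3% of all 14645 tested genes called depleted. No member was called enriched, against 10.5% of the tested genes. DESeq2 and limma voom also called 0 members enriched. Of the 35, 5 passed the filter with both Input and neither IP library over its cutoff of 0.572 CPM, 10 had both IP libraries over it, and none passed through IP alone. With every gene of at least 20 counts tested, 3 of the 57 members were depleted (5.26%), against 6.47% of all genes.

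With the replicate number as a block, which compares Input and IP of the same replicate, 21 of the 35 members were depleted (60.0%) and 0 were enriched. Among all tested genes that fit called 13.4% depleted and 13.4% enriched. With a replicate term and only 4 libraries, little of each gene's own spread is left in that fit. Its p-values therefore lean mostly on spread shared across genes. The 21 were 6 of 14 box C/D, 10 of 14 H/ACA and 5 of 7 Cajal body members. With every gene of at least 20 counts in the same blocked fit, 24 of the 57 members were depleted, against 13.1% of all genes. With 1 library left out of the fit without a block, 3 of 53 tested members were depleted without IP replicate 1 (5.27% of all tested genes), 12 of 50 without IP replicate 2 (6.65%), 22 of 55 without Input replicate 1 (9.50%) and 4 of 43 without Input replicate 2 (11.8%). Member shares were thus near those of all genes in 2 of these fits and above them in the other two. SNORA73B, SNORA74A and SCARNA7 were depleted in all 4 of them.

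Among box C/D members, SNORD3A, a gene for U3 at chr17:19188016-19188714 (plus strand), held 56.4% of the counts. It had 59 and 269 counts in IP and 343 and 1239 in Input. Both IP values lay below both Input values, and the log2 ratio was -2.60 in replicate 1 and -2.75 in replicate 2. In edgeR it had a log2 fold change of -2.80 ± 0.95 (SE, 2 IP and 2 Input libraries) and an adjusted p of 0.0736, and the blocked fit gave -2.79 with an adjusted p of 2.97e-08. Leaving out 1 library moved the fold change from -1.26 (without Input replicate 2) to -4.40 (without IP replicate 2). Whether it passed the test without IP replicate 2 depended on the filter on low counts. SNORD3A is 91.6% identical to SNORD3B-1, so counts may have been split among U3 genes. SNORD3B-2, another U3 gene, had 0 and 4 counts in IP against 23 and 13 in Input, and 0 counts allow up to 0.144 CPM (3 counts, counting error only). Its log2 fold change was -3.42 ± 1.09 with an adjusted p of 0.0623, and the blocked adjusted p was 0.00161. It went from -2.34 without IP replicate 1 to -7.33 without IP replicate 2, and passed the test without IP replicate 2 or Input replicate 2. Summed over the class, box C/D CPM had a log2 ratio of -1.68 and -2.05, and of -1.01 and -1.16 without SNORD3A.

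SNORD17, a long box C/D snoRNA in an intron of SNX5, had 37 and 37 counts in IP and 63 and 93 in Input. Its log2 fold change was -1.56 ± 0.48 (adjusted p = 0.056, and 4.34e-04 with the block). SNORD104, in the noncoding host SNHG25, had 14 and 48 counts in IP and 49 and 85 in Input, and a log2 fold change of -1.56 ± 0.74 (adjusted p = 0.166, and 2.39e-04 with the block). In both genes the 2 IP libraries lay below the 2 Input libraries in scaled CPM. With a library left out SNORD17 ranged from -1.04 (without Input replicate 2) to -1.99 (without Input replicate 1) and SNORD104 from -0.82 (without IP replicate 1) to -2.82 (without IP replicate 2). Whether SNORD17 passed the test without IP replicate 2 depended on the filter on low counts. SNORD12B and SNORD12 lie in the noncoding gene ZFAS1 and overlap its exons. SNORD12B had 28 and 38 counts in IP and 24 and 69 in Input, SNORD12 had 14 and 38 against 16 and 46, and the groups overlapped for both. Their adjusted p-values were 0.328 and 0.549, and without Input replicate 2 their fold changes turned to 0.20 and 0.47 on the log2 scale. Without Input replicate 1 SNORD12B was called depleted (-1.71), and without IP replicate 2 SNORD12 stood at -1.76. The SNORD14 genes, which act in cleavage of pre-ribosomal RNA, were near the threshold, with 6 and 15 counts in IP and 4 and 4 in Input for SNORD14E, and 1 and 5 against 1 and 13 for SNORD14A. Neither passed the filter for the test.

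Among H/ACA members, SNORA73B held 61.6% of the counts and was the most abundant member per length in both Input libraries. It is a U17 gene, known for pre-ribosomal RNA cleavage, at chr1:28508559-28508762 (plus strand) in an intron of SNHG3. It had 60 and 191 counts in IP and 809 and 1370 in Input. Per kb of annotated length this was 14.1 and 53.3 CPM in IP against 227 and 575 CPM in Input, with no overlap between the groups. Its log2 fold change was -3.58 ± 0.69 with an adjusted p of 0.0168. SNORA73B is 93.2% identical to SNORA73A, which was not analysed here, so its counts are uncertain to that extent. Summed over the class, H/ACA CPM had a log2 ratio of -2.81 and -2.67, and of -1.47 and -1.88 without SNORA73B.

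SNORA74A (U19), at chr5:139278781-139278978 (plus strand), had 8 and 16 counts in IP and 52 and 81 in Input. Its log2 fold change was -2.93 ± 0.66 with an adjusted p of 0.0237. SNORA74D, in the same host SNHG4, had 2 and 16 counts in IP and 28 and 47 in Input, and a log2 fold change of -2.49 ± 0.96 (adjusted p = 0.104, and 1.66e-04 with the block). Both genes had every IP value below every Input value, while SNHG4 was not analysed here. SNORA79B, in an intron of CCNB1IP1, had 2 and 29 counts in IP and 16 and 150 in Input. Its replicate log2 ratios were -1.25 and -2.63, and its adjusted p of 0.151 became 3.47e-06 with the block. SNORA71A had 15 and 15 counts in IP and 31 and 39 in Input, and a log2 fold change of -1.68 ± 0.58 (adjusted p = 0.0759, and 0.00194 with the block). Leaving out 1 library moved SNORA79B from -0.23 (without Input replicate 2) to -5.97 (without IP replicate 2) and SNORA74D from -1.55 (without IP replicate 1) to -4.70 (without IP replicate 2). Both were called when IP replicate 2 or Input replicate 1 was left out, as was SNORA71A (-2.03) for the latter. SNORA5A had 3 and 3 counts in IP and 7 and 7 in Input and did not pass the filter. SNORA53, chosen after its values were seen, had 1 and 2 counts in IP and 4 and 82 in Input, so its low ratio rests on Input replicate 2. In the edgeR fit of all genes with at least 20 counts its adjusted p was 0.0584 without the block and 5.7e-06 with it. Both come from the values on which it was chosen.

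The Cajal body members had the highest sums in IP and no member above 0. SCARNA10, at chr12:6510222-6510551 (plus strand), held 57.0% of their counts, with 306 and 528 in IP and 391 and 622 in Input. Its log2 ratio was -0.59 and -0.82, and its fold change of -0.75 ± 0.48 had an adjusted p of 0.29 (0.00138 with the block, where it stayed above -1). SCARNA7, at chr3:160514907-160515236 (minus strand), had 34 and 54 counts in IP and 261 and 225 in Input. It was called depleted, with a log2 fold change of -2.87 ± 0.37 and an adjusted p of 0.0105. Both SCARNA10 and SCARNA7 lie in introns of protein-coding genes with the same length of 330 bases, and SCARNA10 also overlaps an exon of ENSG00000276232. In Input replicate 1 they stood at 22.4 and 14.9 CPM, and in IP replicate 1 at 14.7 and 1.63 CPM.

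SCARNA13 had 25 and 57 counts in IP and 61 and 93 in Input, and its adjusted p of 0.144 became 3.75e-04 with the block. SCARNA21, in CHD3, had 10 and 34 counts in IP and 22 and 51 in Input, and its adjusted p of 0.33 became 0.00764 with the block. SCARNA5, in ATG16L1, had 33 and 81 counts in IP and 45 and 76 in Input, with an adjusted p of 0.572 and of 0.0754 with the block. The groups overlapped for SCARNA21 and SCARNA5 and not for SCARNA13. With a library left out, values ran from -0.15 (without Input replicate 2) to -1.30 (without IP replicate 2) for SCARNA10 and from -0.22 to -2.46 without the same libraries for SCARNA21. SCARNA13 ran from -0.76 (without IP replicate 1) to -2.18 (without IP replicate 2), and SCARNA5 from 0.11 (without Input replicate 2) to -1.44 (without IP replicate 2). SCARNA10 and SCARNA13 were called when IP replicate 2 or Input replicate 1 was left out, and SCARNA21 when Input replicate 1 was. Summed CPM of the class had a log2 ratio of -1.21 and -1.12, and of -2.10 and -1.56 without SCARNA10.

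**Figure D2:**
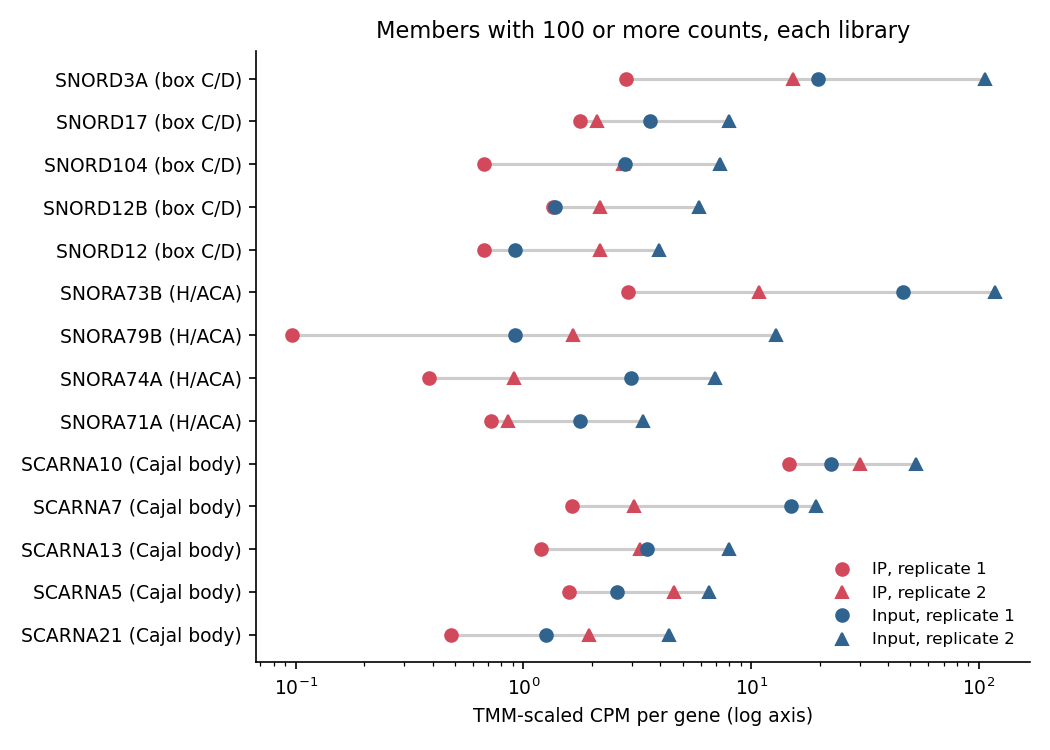
TMM-scaled CPM per gene (horizontal log axis) in each of the 4 libraries for the 14 members with 100 or more counts. Red symbols are IP and blue symbols Input, circles are replicate 1 and triangles replicate 2, and grey lines span the values of a gene. SNORA73B, SNORA74A and SCARNA7 keep IP and Input apart, while SCARNA10 and SCARNA5 show overlapping groups.

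A ratio above 0 in both replicates was found for 6 members, 4 box C/D and 2 H/ACA, which are named here after their values were seen. SNORD83A, in an intron of RPL3, had 6 and 35 counts in IP and 1 and 16 in Input, with log2 ratios of 0.50 and 0.41. SNORA65, in RPL12, had 24 and 33 counts against 11 and 20, with log2 ratios of 0.55 and 0.10. SNORD99, SNORD14E, SNORD63B and SNORA5C had at most 45 counts in all. The counting error of SNORA65 spans -0.21 to 2.05 in replicate 1 and -0.71 to 1.01 in replicate 2 on the log2 scale (exact 95% interval without pseudocount), so neither replicate alone set it above 0. In 3 further members, SNORA54, SNORD12C and SNORD63, the replicates had opposite signs.

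The replicate ratios of the members followed each other less closely than those of all genes. Spearman's rho between replicate 1 and replicate 2 was 0.527 over the 57 members and 0.823 over all 16349 genes, which share the libraries and are no independent replicates. With 0.5 CPM added, members with more counts had lower ratios. Median mean log2 ratios were -0.59 for 25 members (20 to 49 counts), -0.72 for 18 (50 to 99) and -1.24 for 14 (100 or more). Among all genes the order was the opposite, with medians of -0.27, -0.19 and 0.06. Longer members also had lower ratios, with a median of -0.52 for the 16 under 100 bases, all box C/D, -0.79 for the 29 of 100 to under 200 bases and -1.24 for the 12 of 200 or more. Spearman's rho with length was -0.493 over all members, -0.457 within box C/D and -0.385 within H/ACA, and 0.301 over the 9 Cajal body members. Length and counts moved together among these genes, with a median total of 51.5 counts under 100 bases and 232.5 at 200 or more. The added 0.5 CPM pulls ratios most towards 0 where counts are few. The parts of length, counts and this pull in both orders were not tested. GC content had a rho of -0.0386.

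**Figure D3:**
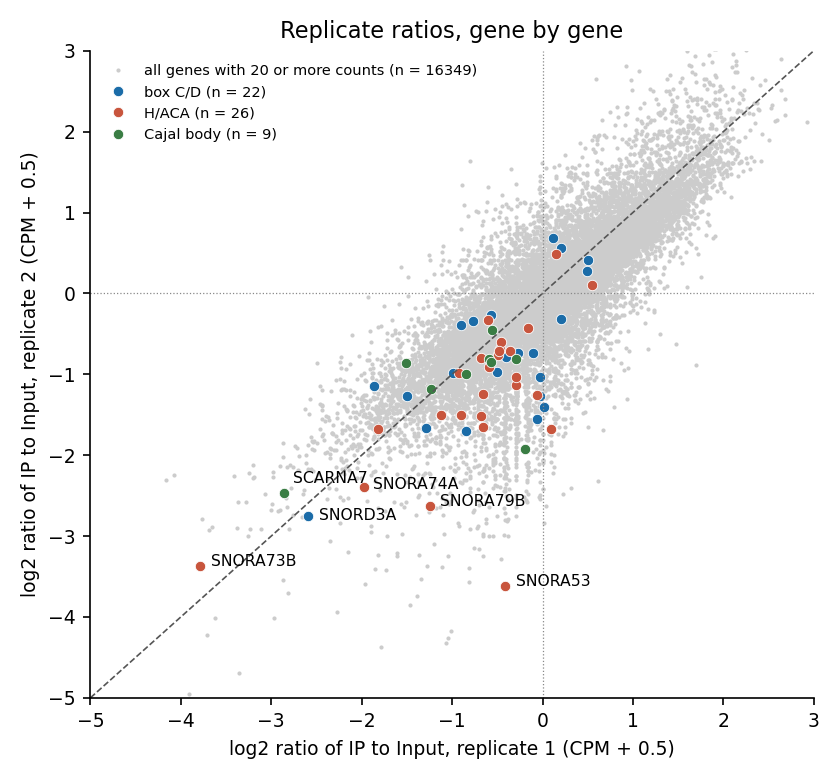
Log2 ratio of IP to Input (TMM-scaled CPM with 0.5 added) in replicate 1 (horizontal axis) against replicate 2 (vertical axis). Grey dots are all genes with at least 20 counts, of which 21 lie outside the axes, coloured dots are the 57 members by class, and the dashed line marks equal ratios. Of the members, 48 lie in the lower left quadrant and 6 in the upper right.

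Since most members lie inside another gene, their ratios were set beside those of their hosts. The 0.5 CPM added to both pulls members with few counts more towards 0 than hosts with many counts. In GENCODE v44, 53 of the 57 members lie within a gene on the same strand, 33 in protein-coding and 20 in noncoding hosts, and 50 members in 40 hosts could be compared. Members in protein-coding hosts lay lower than those hosts. The median mean log2 ratio was -0.66 for the 33 members and 0.62 for the 28 hosts, and 22 members lay below their host in both replicates while 8 lay above. Of these 28 hosts, 11 were called enriched and 6 depleted, against 10.5% and 8.3% of all tested genes. SCARNA21 stood at -0.92 where CHD3, a chromatin remodeller, was at 1.83, and SCARNA10 at -0.70 where the condensin gene NCAPD2 was at 1.25. In the ribosomal protein gene RPS12, at -2.62, SNORD101 stood at -0.65, SNORD100 at -0.42 and SNORA33 at -0.95. SNORA33 had an edgeR adjusted p of 0.346, and was called with the block (log2 fold change -1.62, adjusted p = 0.0119). SNORD14A stood at -0.53 where RPS13 was at -2.78, and SNORD14E at 0.40 where HSPA8 was at 1.79.

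Members in noncoding hosts lay nearer to the level of those hosts, which were low themselves. The 17 members had a median of -0.71 and the 12 hosts of -1.36, with 3 members below and 7 above their host in both replicates. None of these 12 hosts was called enriched and 6 were called depleted, against 10.5% and 8.3% of all tested genes. SNORA73B stood at -3.58 and SNHG3 at -3.12, and SNHG3 had an adjusted p of 0.0202 with a log2 fold change of -3.08. SNORD60 stood at -1.48 and SNHG19 at -1.70, and the adjusted p of SNORD60, 0.0587, became 3.60e-04 with the block. SCARNA13 stood at -1.20 and SNHG10 at -1.73. SNHG17, the host with most members, stood at -0.98 (edgeR adjusted p = 0.146). Its 4 H/ACA members SNORA71A, SNORA71B, SNORA71C and SNORA71D stood at -1.20, -0.71, -0.62 and -0.66. With every gene of at least 20 counts tested, their edgeR log2 fold changes were -1.64, -1.53, -0.96 and -1.73. That of SNHG17 was -0.97 in the fit of the 14645 tested genes. Of all members, 17 overlap an exon of their host, where reads of the member and of the spliced host cannot be told apart. Of those named in this paragraph, SNORD60, SCARNA13, SNORA71A, SNORA71C and SNORA71D lie wholly inside exons of their hosts. SNORA73B and SNORA71B lie outside them. The part of exon overlap in the difference between host types was not tested. Over the 34 pairs with no such overlap the median difference from the host was -0.48, against -0.28 over all 50 pairs. Over the 16 pairs with overlap it was 0.26.

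By class, 7 of the 8 Cajal body members lay below their host in both replicates, with a median difference of -1.70 in replicate 1 and -1.84 in replicate 2. For the 19 box C/D members the medians were 0.46 and -0.20, and for the 23 H/ACA members 0.12 and -0.37. By these ratios neither class stood on one side of its hosts. The median difference over all 50 pairs turned to 0.22 without Input replicate 2 and to 0.02 with a pseudocount of 2 CPM. It was -0.51 with a pseudocount of 0.1 CPM, -0.75 from edgeR fold changes, -1.35 in protein-coding and 0.33 in noncoding hosts. Members of one host share that host's value and are not independent.

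**Figure D4:**
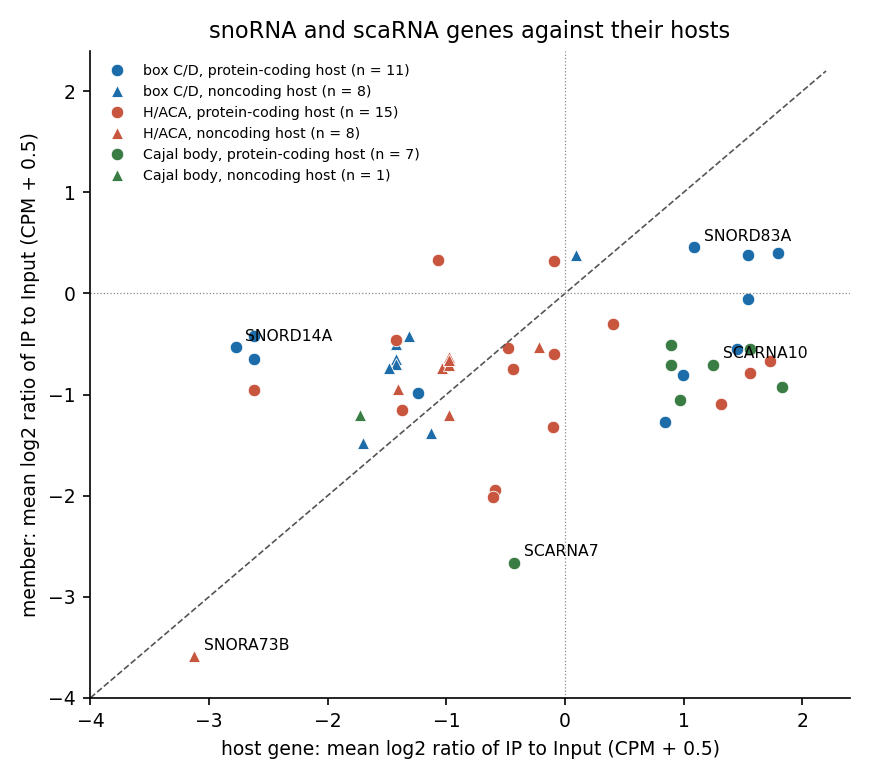
Mean log2 ratio of IP to Input of the 50 members with a counted host (vertical axis) against that of the host gene (horizontal axis), both in TMM-scaled CPM with 0.5 added. Colours give the class, circles are protein-coding and triangles noncoding hosts, and the dashed line marks equal ratios. Protein-coding hosts spread from -2.78 to 1.83, and 22 of their 33 members lie below their host in both replicates.

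The mRNAs of proteins that bind or assemble these RNAs were read in the same fit. Of 22 such genes, 21 were tested, 6 were enriched and 2 depleted, against 10.5% and 8.3% of all tested genes. The enriched genes were the box C/D core protein NOP56 (log2 fold change 1.57) and 5 assembly factors, the helicases RUVBL1 (1.56) and RUVBL2 (1.20), their partner RPAP3 (1.80), NUFIP1 (1.44) and the cap methylase TGS1 (1.50). With scaling by library size only none of the 6 passed, and all genes then moved to a median log2 ratio of -0.53 from -0.03. The depleted genes were SNU13 (-1.45), a box C/D core protein, and GAR1 (-1.16), an H/ACA core protein. GAR1 lost its call without IP replicate 2 (-0.90), RUVBL2 without IP replicate 1 (0.99) or Input replicate 2 (1.03), and NUFIP1 without Input replicate 2 (0.89). FBL (-0.39 ± 0.27), DKC1 (0.78 ± 0.30) and the Cajal body proteins COIL (-0.37 ± 0.23) and WRAP53 (0.07 ± 0.23) did not pass the test. NOP58, another box C/D core protein, had 1.29 ± 0.40 with an adjusted p of 0.0600 and passed with the block (1.40). Core proteins of one particle had values on both sides of 0, while all 3 RNA classes had medians below 0.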

How the data were processed

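Nuclear RNA of 4 HCT116 libraries, 2 IP and 2 Input, was measured by RNA-seq after ribosomal RNA depletion. The authors deposited unnormalized read counts for each gene, made with Trimmomatic, STAR on hg19 and featureCounts with an Ensembl annotation, according to the labels and the study. The annotation release, the strand setting and the handling of multiply aligned reads or shared features are not given in the sources used here, so counts in introns, in shared exons and in near-identical copies (10 members have one of at least 90% identity) are uncertain, and mature snoRNA cannot be told apart from host intron RNA. Reads carry no molecular identifiers, so intervals cover counting error only.

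GENCODE v44 (GRCh38), another build than that of the counts, gave symbols, lengths, hosts, coordinates and sequences, joined by gene identifier. Of the 63677 genes, 11496 had no identifier there. No coordinates were converted. The host was the smallest protein-coding or noncoding gene on the same strand whose span holds the member, taken first among genes with at least 20 counts.

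Counts were scaled by TMM factors (0.758 and 0.868 for IP, 1.19 and 1.28 for Input) and fitted by edgeR 4.0.16 in R 4.3.3, with its quasi-likelihood test, over all 14645 genes that passed filterByExpr, with group as the only term, Benjamini-Hochberg adjustment over all of them, and calls at an adjusted p below 0.05 with a log2 fold change above 1 or below -1. Replicate log2 ratios used CPM + 0.5, and class medians, host differences and correlations are descriptions with no test. The fits were tested on simulated data. Alternatives were other scalings, filters and pseudocounts, DESeq2 1.42.0, limma voom (limma 3.58.1), a replicate block and leaving out each library. The labels give the IP and the Input of one RIP the same number, and deviations from the group means of same-numbered libraries had a Pearson r of 0.637 over genes, so numbers were taken to pair the libraries.

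The members, lists and tests were chosen with earlier results of these data known. Named genes were, in each class, the 5 members with most counts and the 2 highest and 2 lowest mean ratios among members with at least 100 counts, then every called member, the snoRNAs known for pre-ribosomal RNA cleavage, the members at the threshold and the host with most members. The sequences of some named genes are not reported here.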

Additional observations from a re-analysis of the deposited data

How the results depend on the processing

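The sign of the class medians held under every alternative, while calls and host differences moved. Depleted members, 3 in all, became 7 with library size only (7 of the 35 tested, against 22.2% of all genes, a like share), 10 with no filter (17.5% against 5.05%), 5 with a filter of 1 CPM in 2 libraries (19.2% against 9.58%), 21 with the replicate block and 24 with the block and a filter of 20 counts. Leaving out each library gave 3 to 22, and 3 to 23 with a filter of 20 counts. Enriched members, 0 in all, became 0 to 1 when a library was left out (SNORD83A, without Input replicate 2). Depleted snoRNP mRNAs, 2, became 5 with library size only and 1 to 3 when a library was left out, and enriched ones, 6, became 0 with library size only and 4 to 8 when a library was left out. These fits take a lone library to vary like the other group. Among genes named with an edgeR p the block changed no call beyond those given above.

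With a pseudocount of 0.1 CPM the medians were -1.23 for H/ACA and -1.18 for Cajal body members and the box C/D minus H/ACA difference was 0.37. With 2 CPM they were -0.35, -0.54 and 0.032. With library size only the Cajal body median was -1.34 and the difference 0.052. With at least 50 counts the difference was 0.26, and with at least 100 counts it was 0.79, with medians of -1.28 for box C/D and -2.06 for H/ACA. With every gene of at least 20 counts tested, edgeR fold changes gave medians of -1.08, -1.59 and -1.19 for box C/D, H/ACA and Cajal body. The box C/D minus H/ACA difference in that fit was 0.51. Without near-identical copies the difference was 0.19, and without members in exons of another gene 0.075. Leaving out a library or a replicate gave -1.30 to -0.033 for box C/D, -1.49 to -0.25 for H/ACA, -1.34 to -0.088 for Cajal body members and 0.19 to 0.27 for the difference.

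The host difference, -0.28, was 0.021 with a pseudocount of 2 CPM, -0.91 with at least 100 counts, -0.75 from edgeR fold changes, -1.35 in protein-coding hosts only, 0.33 in noncoding hosts only, and -0.53 to 0.22 when a library or replicate was left out. Without Input replicate 2 the log2 fold changes of SNORD12B, SNORD12 and SCARNA5 were 0.20, 0.47 and 0.11, and without IP replicate 1 that of SCARNA5 was 0.088. With a filter of 20 counts these were 0.19, 0.47, 0.11 and 0.068. Their lowest values with a library left out were -1.71, -1.76 and -1.44, and -1.72, -1.77 and -1.45 with that filter. The cause of these shifts was not tested. Alternatives that pair a filter of 20 counts with the block or with leaving out a library, and 1 member per host, were chosen after seeing the data. Most members have under 100 counts, so counting error alone is wide for them.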
